A study of Homo sapiens with 10 samples.

Results

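The surface antigens by which acute myeloid leukemia (AML) is diagnosed, staged and targeted were compared between control and IRF8 knockout MV4-11 cells. The 10 genes were fixed by name, with earlier results of these data known. They are CD33, CD34, CD38, CD44, CD47, CD96, HAVCR2, PROM1, CD14 and CD200, and all 10 are among the 19590 genes of the deposited RNA-Seq table. At least 1 read was found for 9 of them, and 7 passed the filter for testing, which asked that normalized counts average at least 10 across the 8 libraries and left 13110 genes. MV4-11 is an established human AML line of monocytic type with an internal tandem duplication in FLT3. The Control group holds 4 libraries of MV4-11 cells infected with the control vector. The IRF8 KO group holds 4 libraries of MV4-11 cells in which IRF8 was targeted with lentiviral CRISPR/Cas9, and which were grown from single cells as clones under the study's methods. The methods name fewer knockout clones than there are knockout libraries, from more than 1 guide RNA, so that libraries can share a clone. Neither the labels nor the methods say which clone a library came from, so a difference between the groups can also be one between clones, and p-values measure only the spread between these libraries.

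Surface antigens of leukemic blasts fall into a few roles. CD33 and CD14 belong to committed myeloid and monocytic cells, and CD34 and PROM1 to stem and progenitor cells. CD38 is an ectoenzyme that consumes NAD and appears as progenitors mature, and CD44 is the main receptor for hyaluronan and anchors cells in the marrow niche. CD47 binds SIRPA on macrophages and inhibits phagocytosis, while HAVCR2 (TIM-3), CD96 and CD200 are immune regulatory proteins that have been found on leukemic stem cells. IRF8 is a transcription factor that promotes monocyte and dendritic cell development and binds DNA together with partners such as PU.1.

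One antigen, CD47, passed the test and was 1.71-fold higher in the IRF8 knockout libraries, while its receptor gene SIRPA was at 30.7% of the control mean, a log2 fold change of -1.71, or -0.78 relative to the other genes of its chromosome. CD33 was slightly lower and CD14, close to the limit of detection, was higher in each of the 4 replicate pairs, but both were called only when the replicate number was included in the model. For CD38, CD44, CD96 and HAVCR2 the values of the groups overlapped, and none was called. CD34 and PROM1 were barely detected, and no read was found for CD200.

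Reads on genes ranged from 39560072 to 65519047 per library. IRF8 itself had between 15192 and 43016 normalized counts in the control libraries and between 2401 and 12903 in those of the knockout (log2 fold change -2.11, limma adjusted p = 0.022). The IRF8 call did not hold without replicate 1 of the control, replicate 3 of the control or replicate 1 of the knockout (limma adjusted p of 0.058, 0.058 and 0.053). The values of the groups did not overlap, and with the replicate block the limma adjusted p was 6.3e-04. The study reported no IRF8 protein in its knockout clones by Western blot, which RNA counts do not measure. Replicates 1 and 3 stood apart from replicates 2 and 4 in both groups. All 7 genes fixed as markers of the myeloid line, SPI1, CEBPA, LYZ, MPO, CSF1R, HOXA9 and MEIS1, were present, with a sum between 35572 and 52903 normalized counts in the control and between 62374 and 303320 in the knockout libraries. The genes did not move together. MPO was called higher (log2 fold change 4.08, limma adjusted p = 9.9e-06) and MEIS1 lower (-0.56, limma adjusted p = 0.029), and the others were not called. LYZ (log2 fold change 3.09, limma adjusted p = 0.060) was called with the replicate block (limma adjusted p = 0.0021). LYZ alone had 248604 normalized counts in knockout replicate 1, the library with the largest sum. Of the marker genes of other cells, those of erythroid cells summed to at most 9.5 normalized counts in any library and those of fibroblasts to at most 29.0. The sums of the 5 epithelial markers, of which KRT8 and KRT18 alone averaged at least 10, were between 1473 and 3728 in the control and between 60.7 and 242 in the knockout libraries. Those of the 5 B cell markers, with MS4A1 at 0 throughout, were between 479 and 972 and between 436 and 1853, and those of the 8 T and NK cell markers, of which NKG7 alone averaged at least 10, between 2553 and 3107 and between 1065 and 2708. The part of these differences in the values below was not tested. In RNA from a whole culture, fewer cells with a transcript and less of it per cell cannot be told apart.

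The promoters of 9 of the 10 genes, 250 bases before to 50 bases after the annotated start, were read from RefSeq (GRCh38.p14). They were searched on both strands for the composite element of ETS and IRF factors (EICE, here GGAA followed by GAAA after 2 bases of any kind) and for the interferon-stimulated response element (ISRE, here GAAA followed by GAAA after 2 bases of any kind). The patterns can overlap. The EICE was found in 2.82% and the ISRE in 3.57% of the 35116 promoters of the table. Among the surface antigens, CD38 and CD96 each held 1 EICE and no ISRE, and neither motif was present in the promoter windows of CD14, CD33, CD34, CD44, CD47, CD200 and PROM1. The EICE of CD38 lay at -43 to -34 from the start, and that of CD96 at -106 to -97 in the reverse orientation, so that its letters appear there as TTTC and TTCC. The sequences of CD47, the gene with the called difference, and of the genes with a match are shown 5′ to 3′ on the strand of the gene, with the matches in capitals. A match in these letters is no measurement of binding. They lie at chr3:108090982-108091281 (minus strand) for CD47, chr4:15778078-15778377 (plus strand) for CD38 and chr3:111541947-111542246 (plus strand) for CD96.
CD47: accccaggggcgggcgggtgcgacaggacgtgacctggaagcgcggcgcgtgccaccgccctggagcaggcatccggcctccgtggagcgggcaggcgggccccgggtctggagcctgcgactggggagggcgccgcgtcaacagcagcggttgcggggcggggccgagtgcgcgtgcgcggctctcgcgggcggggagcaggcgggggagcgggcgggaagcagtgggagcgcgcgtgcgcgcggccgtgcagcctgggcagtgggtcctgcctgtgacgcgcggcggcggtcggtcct
CD38: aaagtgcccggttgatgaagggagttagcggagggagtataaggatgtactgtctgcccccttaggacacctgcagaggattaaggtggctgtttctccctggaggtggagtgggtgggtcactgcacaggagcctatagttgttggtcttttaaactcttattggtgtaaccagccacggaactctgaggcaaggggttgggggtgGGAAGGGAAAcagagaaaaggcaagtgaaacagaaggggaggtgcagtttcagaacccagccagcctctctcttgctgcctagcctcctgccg
CD96: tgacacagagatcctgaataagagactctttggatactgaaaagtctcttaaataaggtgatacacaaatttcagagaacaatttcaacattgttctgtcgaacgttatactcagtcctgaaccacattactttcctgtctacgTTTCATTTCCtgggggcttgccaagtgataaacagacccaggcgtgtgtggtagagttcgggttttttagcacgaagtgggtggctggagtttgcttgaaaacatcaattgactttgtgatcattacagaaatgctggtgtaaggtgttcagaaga

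Of the 7 tested antigens, 1 was called higher and 0 were called lower in the IRF8 knockout cells at a limma adjusted p below 0.05. Over all tested genes, 18.2% were called, 8.65% higher and 9.56% lower, so the 14.3% of the antigens is a share near the background. The study itself asked for p below 0.01, without adjustment, together with a 2-fold or larger change, by which 0 of the 7 antigens and 10.9% of all tested genes were called. CD47, whose difference was under 2-fold, drops out there. The control and knockout values did not overlap for CD47 and CD14, where 25.3% of all tested genes had groups that did not overlap. With the replicate number as a block, 3 antigens were called, CD47, CD14 and CD33, and 28.7% of all tested genes.

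**Figure D1:**
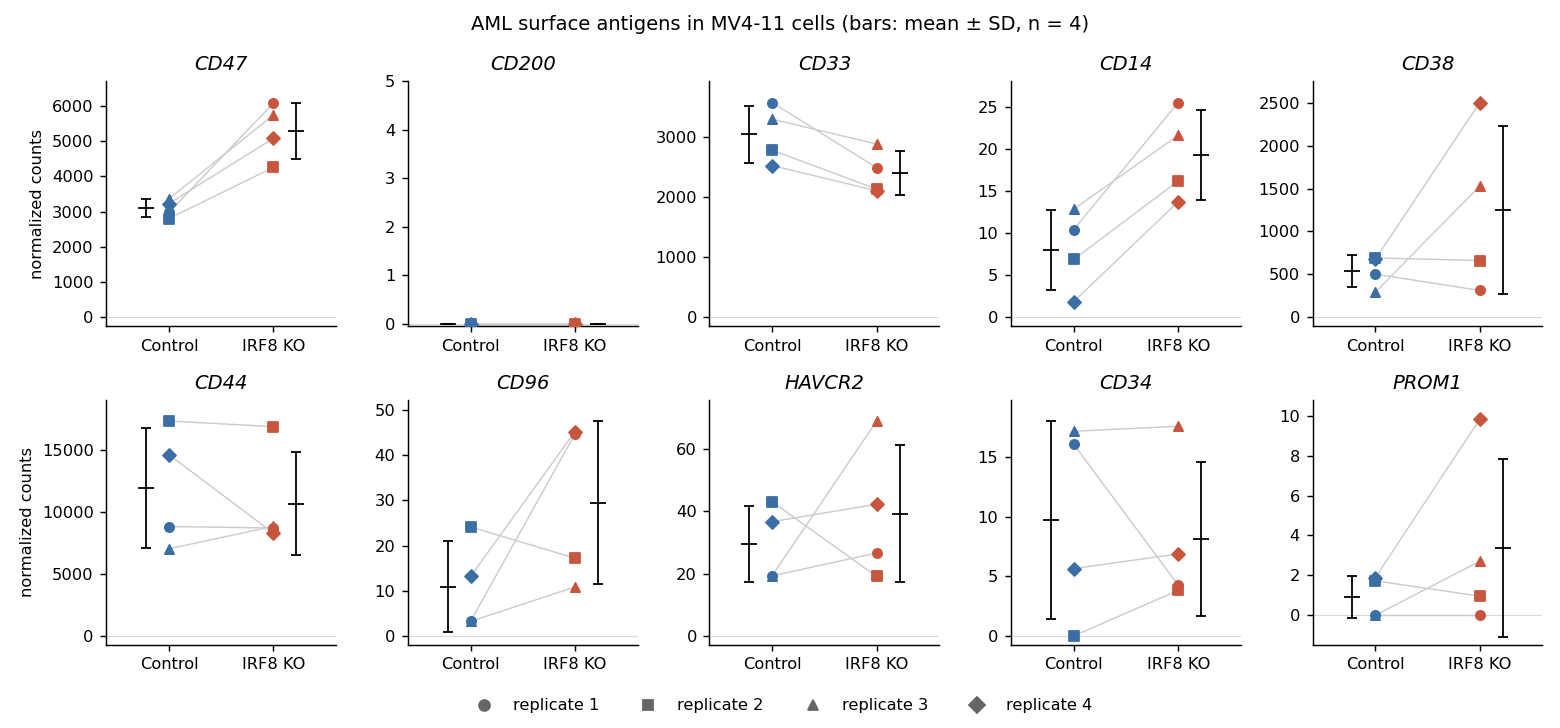
Normalized counts (vertical axes, each scaled to its gene) of the 10 surface antigens in Control (blue) and IRF8 KO (red) libraries; marker shapes give the replicate number, grey lines join equal numbers and black bars give the mean ± SD (n = 4). The knockout values of CD47, from 4258 to 6085, all lie above the highest control value of 3367, and CD200 is at 0 in every library.

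CD47, the inhibitor of phagocytosis, had 2979.7, 2806, 3367 and 3233 normalized counts in control replicates 1 to 4. In knockout replicates 1 to 4 it had 6085, 4258, 5749 and 5084. Every knockout library was thus above every control library, and the control values lay close together. Control cells averaged 3096 ± 251 and knockout cells 5294 ± 806 (SD, n = 4 each). On the log2 scale the difference was 0.76 ± 0.14 (SE; limma, adjusted p = 0.0058), and the exact permutation test gave 0.029, the smallest p that 4 libraries against 4 allow. At between 3135 and 5710 reads per library, counting error is a small part of this spread. The log2 difference stayed between 0.69 and 0.86 with any 1 library left out. The other tested genes of chromosome 3, on which CD47 lies, had a median change of 0.05 (log2). Counts per gene do not separate the splice forms of CD47 and hold no information on the protein at the surface.

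SIRPA, the inhibitory receptor that CD47 engages, moved the other way. It had 11294, 11969, 10762 and 13273 normalized counts in control and 3211, 3765, 3346 and 4199 in knockout replicates 1 to 4. The groups were far apart, by -1.71 ± 0.13 on the log2 scale (SE; limma, adjusted p = 7.9e-05). SIRPG, a relative of SIRPA that also binds CD47, was lower, at 633 ± 114 normalized counts in the control and 104 ± 36.7 in the knockout cells (SD, n = 4 each, limma adjusted p = 4.2e-04). Both lie on chromosome 20, where the median change of the tested genes was -0.92 (log2) and 60.9% were called lower. With this median taken off library by library, SIRPA was still lower by a log2 difference of -0.78 and SIRPG by -1.71 (exact permutation test, p = 0.029 each). The SIRP genes are similar in sequence, so that reads could be split between them. THBS1, which encodes thrombospondin, a secreted ligand of CD47, was at 23.6 to 28.2 normalized counts in the control and at 2473, 73.6, 543 and 418 in knockout replicates 1 to 4. THBS1 was thus higher in each knockout library (log2 fold change 4.09 ± 0.87 (SE), limma adjusted p = 0.012), though by amounts that differed 33.6-fold among them. QPCTL, the enzyme that modifies CD47 at its binding site for SIRPA, was not called, at 825 ± 96.0 and 697 ± 98.5 normalized counts (SD, n = 4 each, limma adjusted p = 0.33).

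CD33, the sialic acid binding receptor that marks myeloid blasts and is targeted by antibody-drug conjugates, had 3565, 2775, 3288 and 2519.6 normalized counts in control replicates 1 to 4. The knockout replicates had 2484, 2129.6, 2878 and 2101. The groups overlapped, since knockout replicate 3 lay above control replicates 2 and 4. Within each pair of equal replicate number, however, the knockout library was lower, by a log2 difference between -0.52 and -0.19. The log2 fold change was -0.34 with a 95% confidence interval of -0.69 to 0.02 (limma adjusted p = 0.18). When the replicate number entered the model as a block, this difference had an SE of 0.10 in place of 0.16 and a limma adjusted p of 0.049. In 47.8% of all tested genes the 4 pairs shared a direction. PTPN6, the phosphatase SHP-1 that CD33 recruits to its cytoplasmic tail, was lower, at 25122 ± 1064 normalized counts in the control and 14422 ± 2506 in the knockout cells (SD, n = 4 each, limma adjusted p = 0.0041). The related PTPN11 was not called, at 17815 ± 1990.2 and 15199.8 ± 2289 (SD, n = 4 each).

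CD14, the co-receptor of lipopolysaccharide and a marker of mature monocytes, was close to the limit of detection. The control libraries held 10.5, 6.9, 12.9 and 1.9 normalized counts, which rest on 13, 8, 12 and 2 reads. The knockout libraries held 25.6, 16.2, 21.7 and 13.8 normalized counts, from 24, 17, 16 and 14 reads. All knockout values were above all control values, the nearest being 13.8 and 12.9. The log2 difference of 1.35 ± 0.53 (SE) was not called (limma adjusted p = 0.11), but it was with the replicate number as a block (SE 0.41, limma adjusted p = 0.048). The other tested genes of chromosome 5, where CD14 lies, had a median change of 0.22 (log2). With this median taken off library by library, the CD14 difference was 1.12 (exact permutation test, p = 0.086). Of the receptor complex that CD14 serves, TLR4 had 486 ± 118 normalized counts in the control and 1359 ± 381 in the knockout cells (SD, n = 4 each, log2 fold change 1.47, limma adjusted p = 0.0052). LY96 (MD-2), the subunit of TLR4 that binds lipopolysaccharide, had 309 ± 118 and 709.9 ± 216 (log2 fold change 1.23, limma adjusted p = 0.025), a call that needed each of control replicates 1 and 3 and knockout replicates 1, 3 and 4 (adjusted p up to 0.065 without one of them). TLR2, which also takes ligands from CD14, fell from 3693 ± 380 to 2116 ± 332 (SD, n = 4 each, limma adjusted p = 0.0048).

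**Figure D2:**
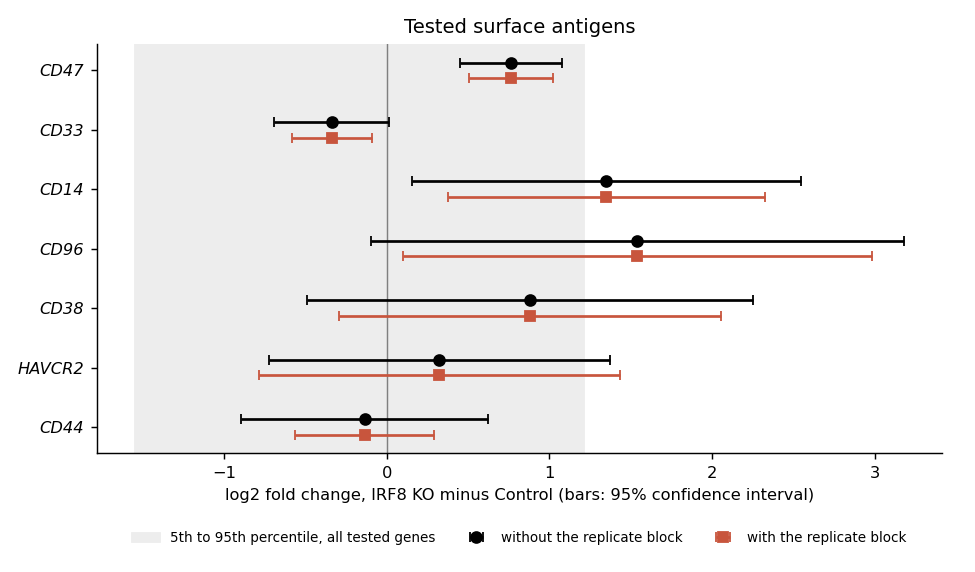
Log2 fold change with its 95% confidence interval (horizontal axis) for the 7 tested surface antigens, fitted without (black) and with (red) the replicate number as a block; the grey band spans the 5th to 95th percentile of all tested genes, -1.55 to 1.21. CD47 has an interval of 0.45 to 1.08 and the intervals of CD38, CD44 and HAVCR2 include 0 in both fits.

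CD38, the NAD-consuming ectoenzyme and target of therapeutic antibodies, had 504, 693, 293 and 676 normalized counts in control replicates 1 to 4. In knockout replicates 1 to 4 it had 314, 661, 1529 and 2501. Knockout replicates 3 and 4 were above every control library, whereas knockout replicates 1 and 2 lay within the control range. The highest knockout value was 7.95 times the lowest, against 2.36 times in the control. The log2 fold change of 0.88 therefore had a wide 95% confidence interval of -0.49 to 2.25 (limma adjusted p = 0.37), and it ranged from 0.41 to 1.41 with each library left out in turn.

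BST1 (CD157), the paralog and chromosomal neighbour of CD38 with the same kind of enzyme activity, was more uniform within the groups. It had 186, 174, 199 and 211 normalized counts in the control and 1949, 698, 775 and 894 in the knockout libraries. The lowest knockout library lay well above the highest control library. The log2 difference was 2.35 ± 0.31 (SE; limma, adjusted p = 0.0012), and BST1 remained called with any library left out. PECAM1, the adhesion partner of CD38, varied between 178 and 1976 normalized counts among the knockout libraries and was not called (limma adjusted p = 0.46).

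CD38 and PROM1 lie near each other on chromosome 4. Of the 12 genes of the table in the stretch within 1 Mb of this pair, the pair included, 7 were tested, CD38 among them. In this stretch 2 were called higher, BST1 and FAM200B, and 1 lower, CC2D2A. FAM200B rose from 555 ± 88.7 to 862 ± 109 normalized counts (SD, n = 4 each, limma adjusted p = 0.025), and CC2D2A fell from 750.3 ± 132 to 172 ± 162 (limma adjusted p = 0.043). Knockout replicates 1 to 4 of CC2D2A had 19.2, 50.7, 348 and 272, so replicates 1 and 2 lay apart from 3 and 4, as for CD38. Leaving out control replicate 3 or knockout replicate 2 kept the FAM200B call and leaving out knockout replicate 3 or 4 kept that of CC2D2A, but without any other single library they were lost (adjusted p up to 0.070 and 0.092). CC2D2A was also not called with edgeR (log2 fold change -2.13, adjusted p = 0.089) or in limma without trend and robust prior (adjusted p = 0.053). The called genes around CD38 thus moved in both directions. The median of the other 425 tested genes of the chromosome was 0.04, and 14.6% of them were called.

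**Figure D3:**
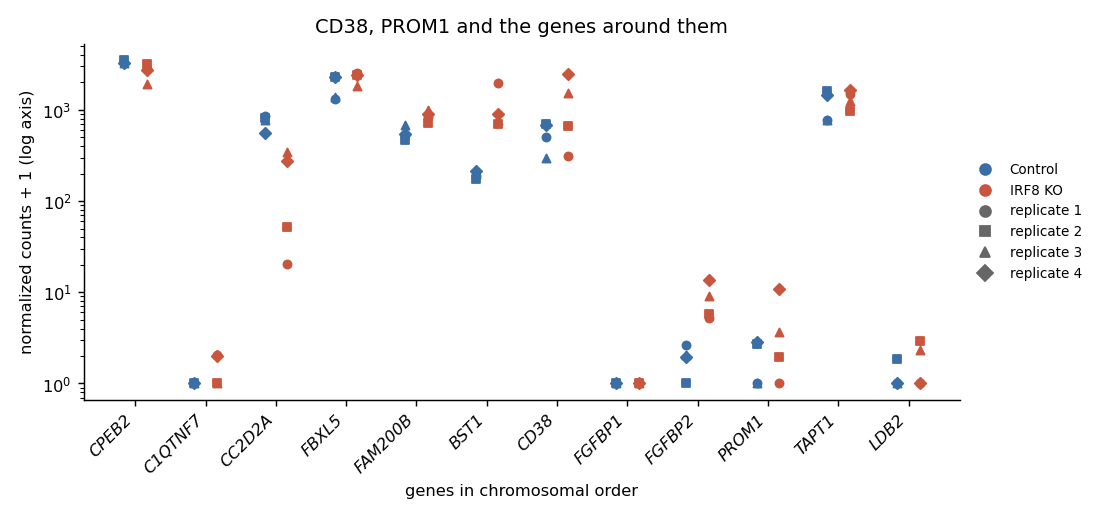
Normalized counts + 1 (log axis) of the genes of the table within 1 Mb of CD38 and PROM1, in chromosomal order, in Control (blue) and IRF8 KO (red) libraries, with marker shapes for the replicate number. The knockout values of BST1 lie above all its control values, those of CD38 are split between replicates 1 and 2 and replicates 3 and 4, and PROM1 reaches at most 9.8 normalized counts.

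CD44, the hyaluronan receptor, followed the replicate number more than the genotype. The control replicates had 8841, 17369, 7043 and 14647 normalized counts, and the knockout replicates 8721, 16917, 8855 and 8298. In the control, the mean of replicates 2 and 4 was 2.02 times that of replicates 1 and 3. In the knockout cells replicate 2 was high as well, but replicate 4 was as low as replicates 1 and 3. The log2 fold change was -0.14 with a 95% confidence interval of -0.90 to 0.62 (limma adjusted p = 0.84), or, with the replicate number as a block, an SE of 0.18 in place of 0.33 (limma adjusted p = 0.62). Without control replicate 2 the sign turned (0.07).

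Several genes that act with CD44 differed between the groups. CD74, the invariant chain that forms a receptor for MIF together with CD44, was lower, at 25107 ± 3129 normalized counts in the control and 7586 ± 6154 in the knockout cells (SD, n = 4 each, log2 fold change -2.02, limma adjusted p = 0.014), with knockout replicate 2 at 16645 and the others between 3033 and 5911. MMP14, a membrane protease that sheds CD44, fell from 26578 ± 1711 to 13504 ± 4032 (SD, n = 4 each, limma adjusted p = 0.0063). MMP9, a protease that CD44 holds at the cell surface, fell from 1735 ± 718 to 487 ± 325 (SD, n = 4 each, limma adjusted p = 0.043). The MMP9 call held without knockout replicate 1 or 2 but not without any other single library (limma adjusted p up to 0.11), nor with edgeR (adjusted p = 0.057) or in limma without trend and robust prior (adjusted p = 0.054), and relative to the median of chromosome 20, on which it lies, its difference of -1.20 did not pass (exact permutation test, p = 0.11). RDX, which links CD44 to actin, rose from 2261 ± 255 to 3448 ± 379 (SD, n = 4 each, limma adjusted p = 0.012), while its relatives EZR and MSN and the ligands SPP1 and MIF were not called.

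HAVCR2, which encodes TIM-3, a checkpoint receptor found on leukemic stem cells, was detected in every library at a low level. It had 19.3, 43.1, 19.3 and 36.7 normalized counts in control and 26.6, 19.1, 69.1 and 42.3 in knockout replicates 1 to 4. The values of the groups overlapped, with knockout replicate 3 above every other library (log2 fold change 0.32, 95% confidence interval -0.73 to 1.37, limma adjusted p = 0.70). Its ligand gene LGALS9 (galectin-9) had nearly equal means, 7846 ± 3415 and 7833 ± 2388 (SD, n = 4 each), with values of 11063 and 10506 in control replicates 1 and 3 against 4518 and 5297 in replicates 2 and 4. HMGB1, another ligand, was above every control value in each knockout library but not called (limma adjusted p = 0.055), although it was in the model with the replicate block (adjusted p = 0.015).

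CD96, a receptor of the nectin family ligands that is found on T and NK cells and on leukemic stem cells, rested on few reads. The control libraries had 3.2, 24.2, 3.2 and 13.2 normalized counts, from 4, 28, 3 and 14 reads. The knockout libraries had 44.8, 17.2, 10.8 and 45.3, from 42, 18, 8 and 46 reads. The groups overlapped, with knockout replicates 1 and 4 above the rest, and the log2 fold change of 1.54 had a 95% confidence interval of -0.10 to 3.18 (limma adjusted p = 0.18). PVR, the main ligand of CD96, did not differ beyond the spread between libraries, with 3518 ± 980.4 and 3374 ± 692 normalized counts (SD, n = 4 each, log2 fold change -0.04, 95% confidence interval -0.56 to 0.48).

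CD200, a ligand that restrains myeloid cells, had 0 reads in all 8 libraries. A count of 0 allows up to 3 reads, which is between 2.4 and 4.1 normalized counts per library and covers counting error only. The gene of its receptor, CD200R1, had at most 6.9 normalized counts in any library. CD96 and CD200 lie 0.67 Mb apart on chromosome 3, with other genes between them. Of the 22 genes of the table within 1 Mb of them, both included, 12 were tested, CD96 among them, with 0 called higher and 2 lower. Of the other tested genes of the chromosome, 17.2% were called. The 2 called lower were C3orf52 (77.0 ± 37.9 to 4.7 ± 7.0 normalized counts, limma adjusted p = 0.0088) and GCSAM (55.2 ± 19.2 to 16.4 ± 11.5, limma adjusted p = 0.043; SD, n = 4 each). In knockout replicates 1 to 4, C3orf52 had 0, 0, 14.9 and 3.9 normalized counts and GCSAM 5.3, 7.6, 27.1 and 25.6. The GCSAM call held without knockout replicate 3 or 4 but not without any other single library (limma adjusted p up to 0.11), nor with edgeR (adjusted p = 0.060). With the replicate block 1 gene of the stretch was called higher, GTPBP8, and 3 lower, with CCDC80 added (limma adjusted p of 0.043 and 0.019).

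The stem cell antigens were at the limit of detection in both groups. CD34 had 16.1, 0, 17.2 and 5.6 normalized counts in control and 4.3, 3.8, 17.6 and 6.9 in knockout replicates 1 to 4, from 70 reads in all. PROM1, which encodes the pentaspan protein CD133, had 0, 1.7, 0 and 1.9 in control and 0, 1.0, 2.7 and 9.8 in knockout replicates, from 17 reads in all, of which 10 were in knockout replicate 4. Both genes failed the filter. With no filter, their log2 fold changes of 0.21 and 0.83 had 95% confidence intervals of -1.82 to 2.25 and -0.80 to 2.46, so that no difference was detectable at this depth.

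**Figure D4:**
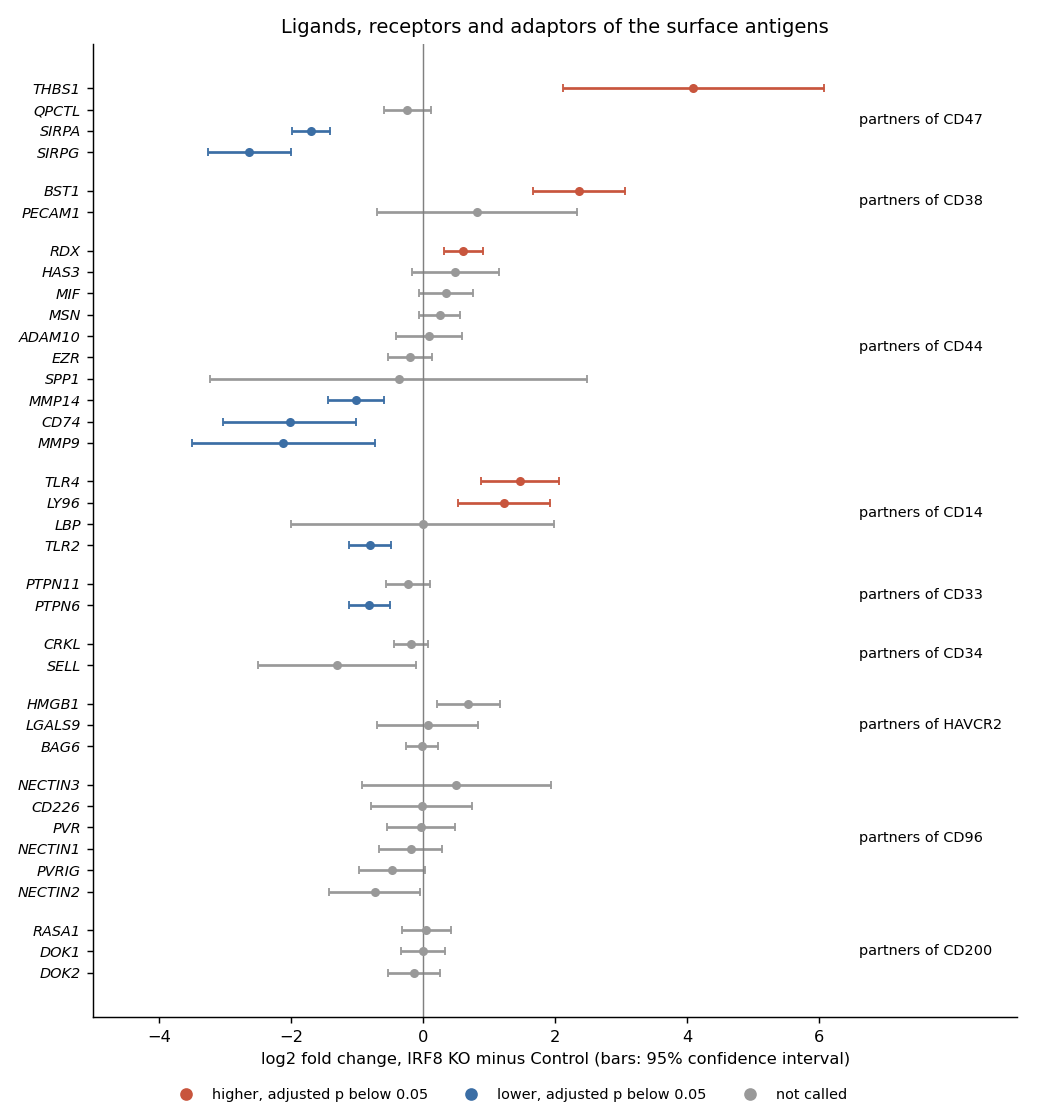
Log2 fold change with its 95% confidence interval (horizontal axis) of the tested ligands, receptors, relatives and adaptors, grouped by the surface antigen they belong to; red and blue mark genes called higher and lower at a limma adjusted p below 0.05. SIRPA and SIRPG (-1.71 and -2.64) and THBS1 (4.09) lie on opposite sides of 0 among the partners of CD47.

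Over the whole list of 42 ligands, receptors, relatives and adaptors, 36 genes were tested, of which 5 were called higher and 7 lower. These 33.3% compare with 18.2% of all tested genes, and the median log2 fold change of the list was -0.03, against -0.00094 for all tested genes. The genes called higher were THBS1, BST1, TLR4, LY96 and RDX, and those called lower SIRPG, MMP9, CD74, SIRPA, MMP14, PTPN6 and TLR2. Of the latter, SIRPG, MMP9 and SIRPA lie on chromosome 20, where 60.9% of the tested genes were called lower. The list was also chosen with earlier results of these data known, so its share cannot be read as a property of partner genes.

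A list of 26 other surface proteins that are measured or targeted in AML was fitted beside the 10 antigens. Of its 25 tested genes, 6 were called higher and 5 lower, together 44.0%, with a median log2 fold change of -0.10. Of all tested genes 18.2% were called, and this list too was chosen with earlier results of these data known. IL1RAP, the accessory chain of the interleukin-1 receptor, rose from 2514 ± 1035 to 19995 ± 7531 normalized counts (SD, n = 4 each, log2 fold change 3.02, limma adjusted p = 5.5e-04). CD4, which monocytes carry as well as T cells, rose from 4216 ± 922 to 23001 ± 3156 (SD, n = 4 each, log2 fold change 2.46, limma adjusted p = 7.6e-05). CLEC12A (CLL-1), a lectin receptor of myeloid blasts, had between 19.8 and 108 normalized counts in the control and between 260 and 3179 in the knockout libraries (log2 fold change 3.74, limma adjusted p = 0.012).

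Among the genes called lower, LILRB4, an inhibitory receptor of monocytic AML, went from 3842 ± 868 to 142 ± 143 normalized counts (SD, n = 4 each, log2 fold change -5.15, limma adjusted p = 3.6e-04). IL3RA (CD123), the interleukin-3 receptor chain, had 3398, 4418, 3681 and 5069 normalized counts in the control and 867, 1417, 837 and 1039 in the knockout libraries (log2 fold change -2.01, limma adjusted p = 3.6e-04). SIGLEC6, a relative of CD33, fell from 974 ± 473 to 251 ± 346 (SD, n = 4 each, limma adjusted p = 0.042). That call held without knockout replicate 2 but not without any other single library (limma adjusted p up to 0.11), nor with edgeR (adjusted p = 0.15) or in limma without trend and robust prior (adjusted p = 0.053), and knockout replicate 2, at 769, overlapped the control values. The other called genes of the list were CD52, PTPRC and ADGRE5, which were higher, and CD276 and ADGRE2, which were lower, and of these 5 CD276 remained called with any library left out. FLT3, at 55440 ± 12686 and 47310.1 ± 5974, was not called (limma adjusted p = 0.48). The related sequences of the SIGLEC and LILR genes can share reads, which was not tested.

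**Figure D5:**
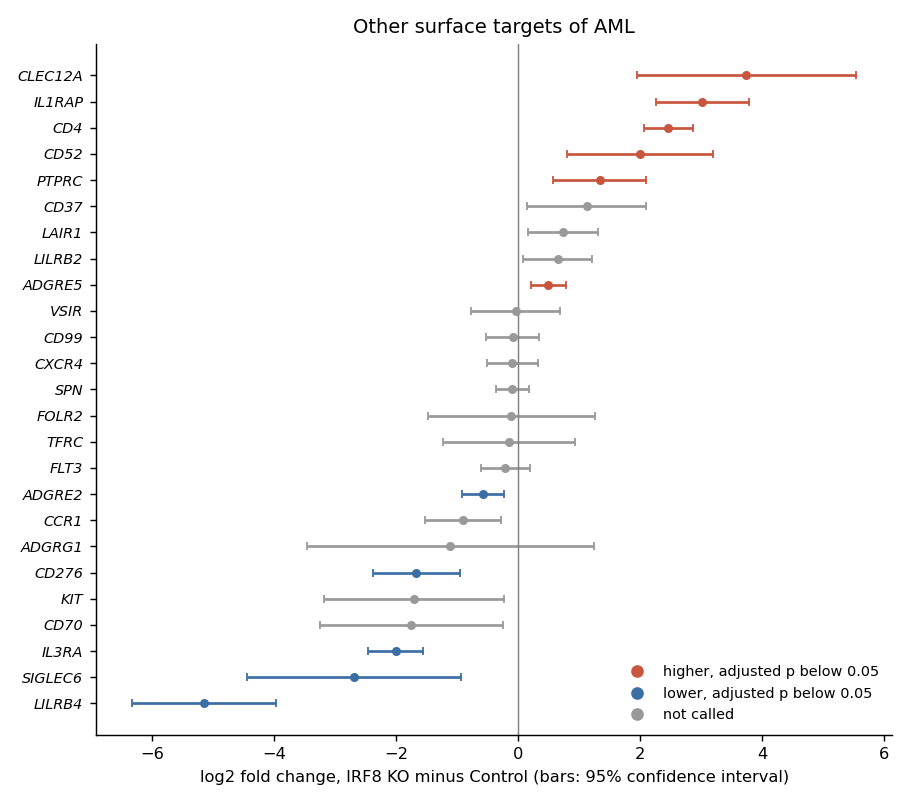
Log2 fold change with its 95% confidence interval (horizontal axis) of the 25 tested genes of the list of other AML surface targets, with genes called higher in red and lower in blue. LILRB4 (-5.15) and CLEC12A (3.74) are at the ends of the range.

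Surface genes of monocytes, a list of 17 that includes CD14 and shares LILRB4 and CD4 with the previous one, were called in both directions. Of 14 tested genes, 4 were higher, ITGAM, CLEC7A, CD4 and FCGR1A, and 4 lower, LILRB4, CD36, CCR2 and CD1D, and the median log2 fold change was 0.14. These 57.1% stand beside 18.2% of all tested genes, in a list chosen with earlier results of these data known. The integrin gene ITGAM (CD11b) rose from 79.6 ± 22.1 to 709.7 ± 366 normalized counts (SD, n = 4 each, limma adjusted p = 9.8e-04), and the lectin gene CLEC7A from 2.0 ± 0.8 to 25.6 ± 15.5 (limma adjusted p = 0.0041). The antigen-presenting molecule CD1D fell from 733 ± 238 to 146 ± 97.9 (SD, n = 4 each, limma adjusted p = 0.0064). The chemokine receptor CCR2 fell from 2905 ± 1942 to 427 ± 257 (limma adjusted p = 0.024) and the scavenger receptor CD36 from 94.6 ± 91.3 to 1.55 ± 1.95 (limma adjusted p = 0.025; SD, n = 4 each). The CCR2 call was lost without control replicate 1 or 3 or knockout replicate 3 or 4, and that of CD36 without control replicate 1 or 3 or knockout replicate 2 or 4 (adjusted p up to 0.070 and 0.072). CD36 was also not called after quantile normalization (limma adjusted p = 0.055). For CD36, control replicates 1 and 3 had 157 and 188 normalized counts against 4.3 and 29.2 in replicates 2 and 4.

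Of 14 surface genes of stem and progenitor cells, among them CD34 and PROM1, 7 were tested. Where 18.2% of all tested genes were called, 1 of these 7 was, PROCR, the endothelial protein C receptor. It was lower, at 905 ± 343 normalized counts in the control and 332 ± 130 in the knockout cells (SD, n = 4 each, limma adjusted p = 0.032). It was no longer called without control replicate 1 or 3 or without knockout replicate 1 (limma adjusted p up to 0.084), nor after quantile normalization (limma adjusted p = 0.053). PROCR also lies on chromosome 20, and with the median of that chromosome taken off its difference of -0.55 did not pass (exact permutation test, p = 0.29). In the blocked model, which called 28.7% of all tested genes, 3 genes of this list were called lower, PROCR, CD109 and ITGA6. The fitted change was negative for all 7 tested genes, with a median of -1.12, and for 6564 of all 13110 tested genes. The rest of the list failed the filter, so this covers only a part of it. With no filter, 1 of the 14 genes was called higher and 1 lower. The fits of CD34 and PROM1, at the limit of detection, were then positive (0.21 and 0.83).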

How the data were processed

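RNA-Seq of 4 control and 4 IRF8 knockout libraries of MV4-11 cells was analysed, and the 2 IRF8 ChIP-Seq samples were not analysed here. Per the study's methods, RNA-Star 2.7.2b served for alignment and GENCODE v32 for annotation, and gene counts from featureCounts 2.0.1 were normalized in DESeq2. The labels name the builds hg19 and hg38 without saying which served the RNA-Seq. The deposited signal values are gene counts divided by 1 size factor per library, by the authors, so that 100% of the values in each library were whole reads within 0.01 reads, from 39560072 to 65519047 in total. A second deposited file holds the authors' own comparison and was not used. Control columns are headed as wild type with their number, and 0 columns were left unassigned.

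The groups were compared with limma 3.58.1 in R 4.3.3 (trended, robust prior variance) on log2(normalized count + 1) for genes averaging 10 or more, with Benjamini-Hochberg adjustment over all 13110 tested genes, and single genes also with exact two-sided permutation tests. Fold changes on this scale understate the change of genes with low counts. A fold is the ratio of group means. Calls are at an adjusted p below 0.05. Alternatives were pseudocounts of 0.5 and 5, no filter or a mean of at least 100, other scalings, limma without trend and robust prior, count tests on the recovered reads (edgeR 4.0.16 or DESeq2 1.42.0), the replicate block, leaving out each library and, chosen after seeing the data, a batch covariate (replicates 1 and 3 against 2 and 4). The limma, edgeR and DESeq2 fits were first checked on simulated counts, which held no difference between sets of replicates as these libraries do. The permutation test was checked on short made-up series.

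Once group means were taken off, a control library and the knockout library of its number deviated alike across genes (Pearson correlations of 0.41, 0.57, 0.55 and 0.57 in order of their number), and the block took the numbers to pair the samples. Unlike numbers also deviated together: control 1 with knockout 3 at 0.56, 3 with 1 at 0.44, 2 with 4 at 0.45 and 4 with 2 at 0.50. These values therefore do not set pairs of equal number apart from the sets of replicates 1 and 3 and of replicates 2 and 4. The sources do not say what a shared number marks. The members, the lists (from general knowledge) and the rule for named genes were chosen with earlier results of these data known. The rule takes the members, IRF8, called partner genes with a mean of at least 100 and 7 fixed partners, the 6 called genes with the largest change of each other list, called neighbours within 1 Mb, and the 3 genes most like each called member. QPCTL, PTPN11, PECAM1, HMGB1, FLT3, CD69, CD109, ITGA6, MPO, LYZ, MEIS1, FCGR1A, GTPBP8, CCDC80 and the last 5 of the other targets, and the list genes given only as not called, fall outside it, chosen after seeing their values. Chromosomes, gene order and promoter sequences came from RefSeq GRCh38.p14, where 12992 of the 13110 tested genes were found. Whether strand was used in counting is not given.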

Additional observations from a re-analysis of the deposited data

Results flagged for a closer look

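CD44 in knockout replicate 2, with 16917 normalized counts, lay far from the other 3 knockout libraries (8298 to 8855). The gap to the nearest of them was 0.94 of the range of the group, above Dixon's 95% critical value for 4 samples. It was the only such library among 18 groups of 4, both groups of every antigen but CD200, where chance gives about 1 in 20. The control library of the same number was the highest of its group, at 17369.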

How the results depend on the processing

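The higher CD47 and its call held under all 19 alternatives, with log2 fold changes from 0.69 to 0.86 and adjusted p-values up to 0.020. The replicate block raised the number of called antigens from 1 to 3, added CD33 (-0.34) and CD14 (1.35), and gave 3 progenitor surface genes and 3769 called genes in all. It changed no other call among the tested antigens. The batch covariate, chosen after seeing the data, likewise gave 3 antigens, with CD33 at -0.34 (adjusted p = 0.019) and CD14 at 1.35 (adjusted p = 0.032), 3 progenitor genes and 4333 genes in all. The thresholds of the study left 0 antigens and 1429 genes. The single called progenitor gene became 2 with no filter and with DESeq2, and 0 with quantile normalization. With each library left out in turn, the called antigens stayed at 1, the progenitor genes ranged from 0 to 1, the other surface targets from 6 to 12 against 11, and CD44 from -0.38 to 0.07, with the sign turned only without control replicate 2 (0.073). The other surface targets numbered 7 without control replicate 1, and 6 without control replicate 3 or knockout replicate 1, 3 or 4. The causes of these changes were not tested. A mean of at least 100 leaves CD14, CD96 and HAVCR2 untested. The reads behind CD14, CD34, CD96, HAVCR2 and PROM1, at most 51 in any library, limit what can be seen there.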

Other observations

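Taking the group means off, the genes whose deviations over the 8 libraries were most like those of CD47, among 10986 genes with a mean of at least 100, were IL13RA1, EPHX1 and GTF2H5, with Pearson correlations of 0.98, 0.98 and 0.96. They are the highest of many, the libraries of equal number deviate together, and none of the 3 was called between the groups (limma adjusted p of 0.24, 0.67 and 0.13).

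MPO, the myeloperoxidase of granulocyte and monocyte precursors, had between 712 and 823 normalized counts in the control and between 8974 and 18443 in the knockout libraries. CD69, an early activation antigen on the progenitor list, had at most 0.9 normalized counts in a control library and between 10.8 and 27.5 in the knockout libraries. It failed the filter with a mean of 9.9 and was named after its values were seen.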
